A study of Mus musculus with 17 samples.

Results

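The regions described here are stretches of the mouse genome where histone H3.3 was called in lens fibers but not in lens epithelium, and which lie over the start of a protein-coding gene. Histone H3.3 was measured by ChIP-seq, which sequences the DNA bound to an immunoprecipitated protein, in 4 libraries of newborn mouse lens. The H3.3 islands of all 4 libraries, which are runs of 200 bp windows with more reads than the caller's background model gives, were joined into 1 region whenever they shared a base (1 bp or more). A merged region was kept when it held an island of both fiber libraries and of neither epithelium library, lay on chromosomes 1 to 19 and covered the first base of a protein-coding gene. This gave 2491 regions of 38396 merged regions, over 2877 gene starts of 20807, or 13.8% of starts. Among the 8008 starts in a region with islands in both fiber libraries, 35.9% had no epithelium island there. The members were selected on the island calls of all 4 libraries, so these shares follow from the rule, and no test was made of them.

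Both groups came from CD1 mice, with the epithelium separated from the fibers by microdissection, and each comprised 2 libraries named as biological replicates. Sample titles give the age as P1, whereas the protocol text gives P0.5. The labels state 150 lenses per replicate, so each library is a pool of many animals, and the methods of the study give a different number of lenses. The epithelium lists held 1331369 and 1430373 reads in islands and the fiber lists held 5041885 and 5359085. Total sequencing depth was not known, so absence of H3.3 in the epithelium and a lower sensitivity of its libraries cannot be told apart. A start base lay inside an island at 2725 and 3190 genes in the epithelium replicates and at 7961 and 9075 genes in the fiber replicates. The fiber mean was 2.88 times that of the epithelium, with no overlap between the groups, and the exact two-sided permutation test gave p = 0.33, the smallest that 2 against 2 libraries allow. All 8 lens fiber marker genes checked had their start inside an island in both fiber libraries, and 2 and 4 of them in epithelium replicates 1 and 2. Of 12 lens epithelium marker genes, 2 and 4 had such an island in the epithelium replicates and 8 in each fiber replicate.

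H3.3 is the replication-independent form of histone H3 and is placed into chromatin throughout the life of a cell, mainly at active genes, promoters and enhancers, by chaperones that include the Hira complex. Lens fibers arise from the epithelium, leave the cell cycle, elongate, fill with crystallins and break down their organelles and nuclei. The replication-dependent H3 forms are supplied mainly in S phase, so cells that no longer divide renew their H3 mainly with the replacement form.

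The genes under these regions included lens-specific genes with few CpG dinucleotides at their start and genes with CpG-rich starts. The sequences below run from 120 bases before to 20 bases from the start base on, in gene direction, in GRCm38 (mm10), with every CpG in capitals. The first 4 belong to the crystallin and fiber membrane genes among the members, and Rbm24 and Sox4 were added for contrast after their values were seen. Cryga lies at chr1:65103354-65103493 on the minus strand, Crygf at chr1:65926400-65926539 on the plus strand, Lim2 at chr7:43427550-43427689 on the plus strand and Bfsp1 at chr2:143863154-143863293 on the minus strand. Rbm24 lies at chr13:46418314-46418453 on the plus strand and Sox4 at chr13:28953694-28953833 on the minus strand.
Cryga: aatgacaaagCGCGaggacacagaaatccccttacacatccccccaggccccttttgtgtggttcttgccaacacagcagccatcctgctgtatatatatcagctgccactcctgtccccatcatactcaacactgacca
Crygf: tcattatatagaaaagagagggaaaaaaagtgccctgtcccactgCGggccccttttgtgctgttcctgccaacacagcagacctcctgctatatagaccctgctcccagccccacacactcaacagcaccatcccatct
Lim2: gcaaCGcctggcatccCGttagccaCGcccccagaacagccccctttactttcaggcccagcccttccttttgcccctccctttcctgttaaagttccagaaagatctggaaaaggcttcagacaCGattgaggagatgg
Bfsp1: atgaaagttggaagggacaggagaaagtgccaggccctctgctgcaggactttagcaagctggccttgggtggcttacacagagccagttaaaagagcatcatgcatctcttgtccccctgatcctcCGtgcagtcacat
Rbm24: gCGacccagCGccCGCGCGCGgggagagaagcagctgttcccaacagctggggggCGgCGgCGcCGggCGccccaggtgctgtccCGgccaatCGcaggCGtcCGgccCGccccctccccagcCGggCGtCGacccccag
Sox4: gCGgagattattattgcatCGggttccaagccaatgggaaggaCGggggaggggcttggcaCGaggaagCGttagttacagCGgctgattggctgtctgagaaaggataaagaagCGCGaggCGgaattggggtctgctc
The 140 bases held 2 CpG in Cryga, 1 in Crygf, 4 in Lim2 and 1 in Bfsp1, against 19 in Rbm24 and 9 in Sox4. The same windows of the members Pla2g16 and Wdr11, not printed here, held 7 and 4. The longest run of letters shared by the windows of Cryga and Crygf, which encode related gamma-crystallins, was the 14 bases tgccaacacagcag, beginning 54 bases before the Cryga start and 53 before the Crygf start. Repeated sequence was rare in the regions as a whole. The median region had 0.149% of its 75-base stretches, the length of a read, elsewhere on the assembled chromosomes as well, and the regions of Cryga and Crygf had 1.6% and 1.8%.

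Most fiber-only regions at gene starts were short. The median length was 5600 bp, with quartiles of 4200 and 7800 bp and a range of 1400 to 77200 bp. Without fiber replicate 1 the median was 3600 bp, and with the same number of islands from each list, taken by reads, it was 10200 bp. For comparison, the 2010 regions at gene starts with islands in all 4 libraries had a median of 15000 bp. A fiber-only region held a median of 124 reads in islands of fiber replicate 1 and 116 in islands of fiber replicate 2, with ranges of 51 to 2229 and 38 to 2174 reads. The read density, in reads per kb of island, had medians of 27.6 and 28.5 in the 2 fiber replicates, against 30.2 and 30.6 at starts with islands in all 4. The fiber-only regions were thus narrower than these, with somewhat lower median densities. Neither trait was particular to the members. Regions at gene starts with both fiber libraries and 1 epithelium library had a median of 7600 bp, with 28.5 and 28.9 reads per kb in the fiber replicates. Fiber-only regions in gene bodies had 6200 bp with 26.6 and 27.1, and those outside genes 5000 bp with 27.8 and 28.5. Length and reads come from the island calls that sorted the regions, so these contrasts are not independent of the rule and were not tested. The islands were single in 93.1% and 89.4% of the regions in fiber replicates 1 and 2.

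Island length was within 2 times between the fiber replicates in 86.4% of the 2491 regions, and read density, which varied little among regions, was within 1.5 times in 96.0%. Across the regions Spearman's rank correlation between the replicates was 0.61 for reads, 0.56 for island length and 0.36 for density, where the regions share the libraries and their depth. The start base itself lay inside an island of both fiber libraries at 2452 member genes (85.2%), of fiber replicate 1 alone at 229 and of fiber replicate 2 alone at 196.

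**Figure D1:**
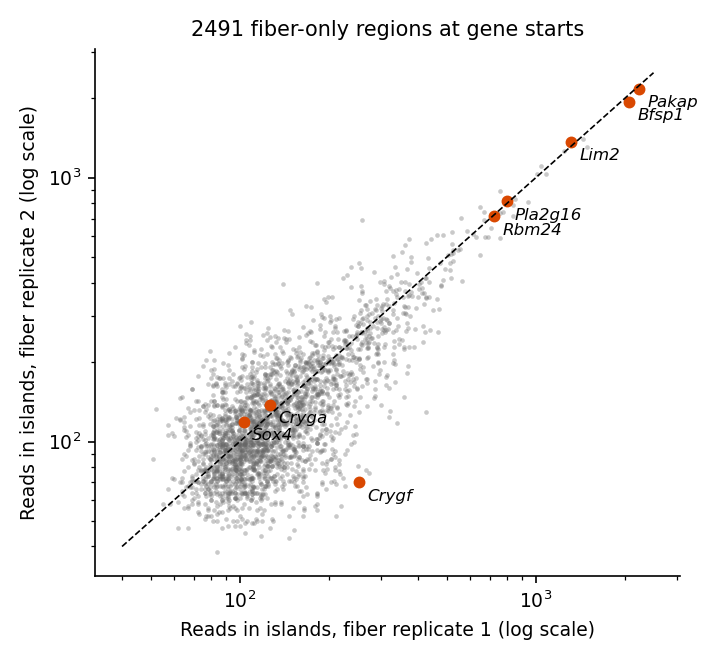
Reads in islands of the 2491 fiber-only regions at gene starts in fiber replicate 1 (x axis) and fiber replicate 2 (y axis), both on log scales, with equal reads on the dashed line. Labelled regions are in orange: Pakap, Bfsp1 and Lim2 lie at the upper end near the line, and Crygf, with 252 and 70 reads, lies below it.

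The share of fiber regions at gene starts that lacked an epithelium island fell with the number of reads they held. Of the regions with islands in both fiber libraries, 69.0% of the 1704 with under 100 reads in the lower fiber library were fiber-only. The share was 43.9% of 2292 regions with 100 to under 200 reads, 19% of 1415 with 200 to under 500 and 5.80% of 517 with 500 to under 1000. At 1000 reads or more it was 3.77%, or 9 of 239 regions, while 217 of the 239 had islands in both epithelium libraries. The fewest reads in any called epithelium island were 26 and 22 in replicates 1 and 2. Members were thus most frequent among the fiber regions with few reads, and the part of sequencing depth in this was not tested.

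The 9 regions with at least 1000 reads in both fiber libraries included 2 at genes of the fiber membrane and its cytoskeleton. Bfsp1 encodes filensin, a subunit of the beaded filament that is peculiar to lens fibers. Its region, chr2:143811001-143866200, was 55200 bp long with 2073 and 1942 reads in fiber replicates 1 and 2, and it enclosed the whole gene of 36646 bp. Lim2 encodes MP20, an abundant membrane protein of fiber cells. The Lim2 region, chr7:43420801-43459600, was 38800 bp long with 1319 and 1371 reads, and also covered the starts of Nkg7, Cldnd2, Etfb and Gm45233. Both regions enclosed their whole gene, so by the rule neither epithelium library had an island in Bfsp1 or Lim2. The longest of all was the region of Pakap, a gene for an anchor protein of protein kinase A joined to paralemmin sequence, with 77200 bp and 2229 and 2174 reads. Mboat1, an acyltransferase of membrane phospholipids, had 54800 bp with 1492 and 1308 reads.

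Others of the 9 lay at Mthfd1l, Gm9747, Vit and Slc24a4. Mthfd1l, a mitochondrial enzyme of folate metabolism, had 54200 bp with 1441 and 1404 reads, and its region ran 41917 bp upstream of the start and 12282 bp downstream. Gm9747 had 52000 bp with 1039 and 1110 reads. Vit and Slc24a4 were named after their values were seen. Slc24a4, a potassium-dependent exchanger of sodium and calcium, had 42600 bp with 1082 and 1030 reads, and Vit, an extracellular matrix protein, had 34600 bp with 1012 and 1031. In each of the 9, the fiber replicates were close to each other. Regions of over 20 kb made up 2.05% of the members (51 regions), against 34.8% of the regions called in all 4 libraries. This contrast in width is likewise not independent of the rule.

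Crystallins are the structural proteins that fill fiber cells. The starts of all 16 listed crystallin genes lay in regions with islands of both fiber libraries, and 2 of them, or 12.5%, had no epithelium island there, against 35.9% of all starts in such regions. Cryga had 126 and 138 reads in fiber replicates 1 and 2 in a region of 5400 bp, and its start lay inside the island of replicate 1 only. Crygf had 252 and 70 reads in a region of 9400 bp that enclosed the gene, the islands being 9400 and 2200 bp long. The neighbouring region over Crygb, Crygc, Crygd and Cryge had 1483 and 1277 fiber reads and 1 island of 99 reads in epithelium replicate 2, which kept it out. Without epithelium replicate 2 the number of fiber-only crystallin genes was 7, and with the same number of islands taken from each list it was 0 by reads and 1 by density.

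Among 15 genes of the fiber membrane and cytoskeleton, Bfsp1, Lim2 and Cdh2 were members (20%, against 13.8% of all starts). Islands in all 4 libraries lay at 7 others. Of the 13 listed starts with islands of both fiber libraries, 23.1% were members, below the 35.9% of all such starts. Cdh2 encodes N-cadherin, the cell adhesion molecule of fiber cells. Its region was 6800 bp long, at the start of a gene of 220370 bp, with 200 and 198 reads. Epithelium replicate 2 had an island elsewhere in Cdh2, over 0.817% of the gene. By contrast Cdh1, which encodes the E-cadherin of the lens epithelium, was also a member with 243 and 300 fiber reads at its start, but epithelium islands covered 17.0% and 26.9% of the gene further away. Fiber islands covered more of Cdh1, 41.6% and 48.6% with its start included. A start without an epithelium island thus did not always mean a gene without one.

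RNA-binding proteins of the lens had 6 members among 13 starts (46.2%), against 13.8% of all starts. All 13 lay in regions with islands of both fiber libraries, and against the 35.9% of all such starts the share was exceeded by the Zfp (59.3%), cholesterol synthesis (57.1%), ubiquitin conjugation and proliferation lists. Rbm24, a regulator of mRNA stability and splicing, had a region of 25200 bp that enclosed the gene, with 721 and 714 reads. Pcbp2, a poly(C)-binding protein, had 361 and 558 reads, and its start lay inside the island of fiber replicate 2 only. Elavl1, which binds AU-rich elements, had 311 and 372 reads. The other members held fewer reads in shorter regions. Celf1, which controls splicing and mRNA decay, had 167 and 94 reads, Caprin2 94 and 117, and the double-stranded RNA-binding Stau1 87 and 123. The starts of the other 7 listed genes lay in regions with islands of both fiber libraries and of the epithelium, 5 of them in all 4 libraries.

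Organelle removal and autophagy genes were members at 6 of 26 starts (23.1%), against 13.8% of all starts. Of their 21 starts with islands of both fiber libraries, 28.6% were members, below the 35.9% of all such starts. Pla2g16, a phospholipase needed to break down organelle membranes in fibers, stood apart with a region of 28200 bp and 797 and 817 reads, over most of its gene of 31087 bp. Epg5, which helps autophagosomes fuse with lysosomes, had 412 and 367 reads. The core autophagy genes had narrower regions. Ulk2, a kinase that starts autophagy, had 211 and 123 reads, Atg5 103 and 159, Atg9a 126 and 138 and Becn1 82 and 77. None of these 6 genes had an epithelium island in the gene.

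Lens transcription factor genes were members at 3 of 24 starts (12.5%), close to the 13.8% of all starts, while 9 had islands in all 4 libraries. The 3 were Meis1, Meis2 and Zeb2. Of the 17 listed starts with islands of both fiber libraries, 17.6% were members, below the 35.9% of all such starts. Meis1 and Meis2 encode homeodomain proteins that act upstream of Pax6 in the early lens. Meis1 had 101 and 171 reads and Meis2 108 and 113. Epithelium islands elsewhere in Meis1 covered 11.5% and 6.47% of the gene, and fiber islands covered 29.7% and 32.8% with its start included. Zeb2, a zinc finger repressor of the SMAD pathway, had 144 and 201 reads and no epithelium island in the gene.

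**Figure D2:**
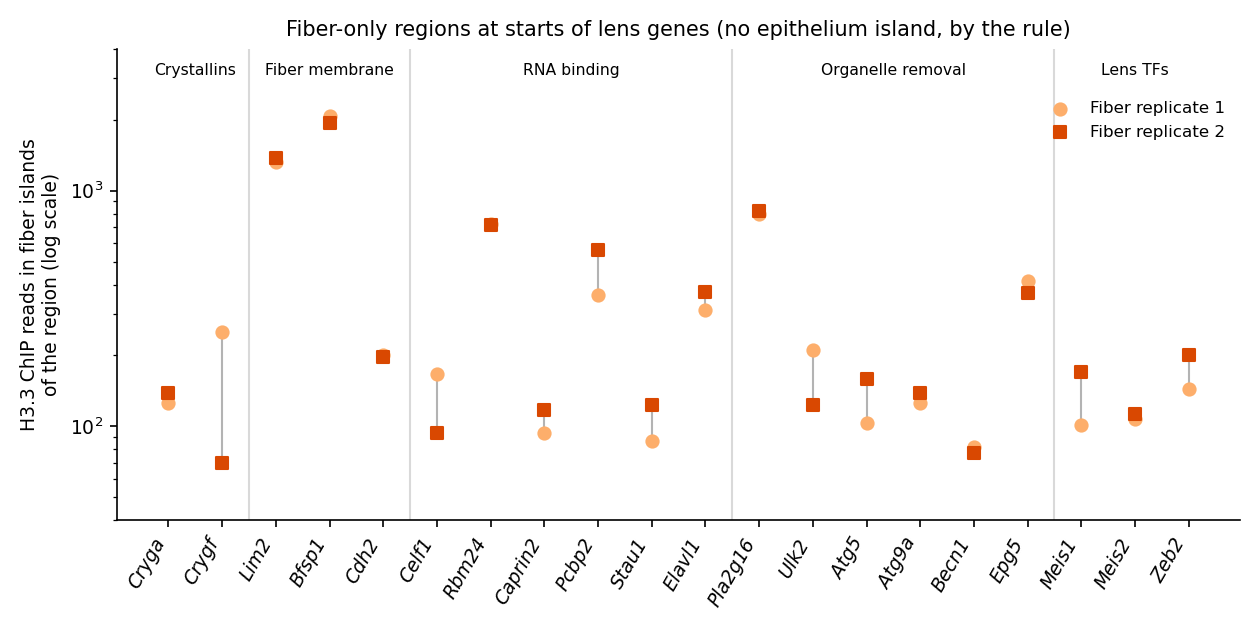
Reads in fiber islands of the regions over the starts of 20 lens genes (y axis, log scale), with circles for fiber replicate 1 and squares for fiber replicate 2. Bfsp1, Lim2, Pla2g16 and Rbm24 hold over 700 reads in both replicates, and Becn1 holds the fewest in replicate 1, with 82.

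Several lists of widely expressed genes held more than the 13.8% of all starts. These lists, like the lens lists, are described by their counts only. Ubiquitin conjugation had 11 of 27 starts (40.7%), cholesterol synthesis 8 of 20, FGF and BMP signalling 10 of 29 (34.5%), actin cytoskeleton 9 of 30, glutathione and oxidative defence 6 of 21 (28.6%) and proteasome 5 of 20. Among starts with islands of both fiber libraries, the share of members was 50%, 57.1%, 45.5%, 36%, 37.5% and 41.7%, in the same order. Of all such starts 35.9% were members, close to the shares of the actin and oxidative defence lists. In the ubiquitin list Ube2d3, a conjugating enzyme, had 127 and 181 reads and Cul3, the scaffold of a ligase, 225 and 242. Cul1, another scaffold, had 79 and 97, and the conjugating enzyme Ube2g1 98 and 55. In cholesterol synthesis, Hmgcs1, which makes the HMG-CoA used for mevalonate, had 177 and 159 reads. Sqle, which oxidizes squalene, had 155 and 72, and Lss, which closes the lanosterol ring, 113 and 114.

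In FGF and BMP signalling, the feedback inhibitors Spry1 and Spry2 had 169 and 159 reads and 398 and 436 reads, in regions that enclosed each gene. The activators Sos1 and Map2k1 had 167 and 113 reads and 98 and 78. In the actin list Wasl, an activator of the Arp2/3 complex, had 204 and 245 reads, Wasf1 109 and 100, Arpc2, a subunit of that complex, 104 and 49 and the kinase Rock1 60 and 72. Among oxidative defence genes Gclm, the modifier subunit of the enzyme that limits glutathione synthesis, had 308 and 395 reads, Prdx1 103 and 212, Sod2 91 and 122 and Cat, which encodes catalase, 85 and 77. The proteasome members Psma5, Psmb1, Psmc2 and Psma3 had 259 and 291, 186 and 122, 146 and 133, and 85 and 101 reads. Except for Spry2, Gclm and Psma5, these regions were under 10 kb long.

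The H3.3 chaperone list had 3 of 11 starts (27.3%). Hira itself had 213 and 135 reads, and its partners Ubn1 and Ubn2 had 190 and 156 and 51 and 86. In the spectrin skeleton 2 of 14 starts were members (14.3%), Sptbn1 with 210 and 228 reads and Epb41l3 with 120 and 92. Cell cycle exit had 3 of 18 (16.7%), namely the pocket protein genes Rb1 with 107 and 126 reads and Rbl2 with 89 and 91, and the kinase inhibitor Cdkn2c with 97 and 100. Proliferation genes had 4 of 23 (17.4%). They were Pcna with 83 and 65 reads, Plk1 with 80 and 71, Kif11 with 119 and 61 and Ccnb2 with 114 and 92. All 4 held fewer reads than the median member region in both replicates. Among starts with islands of both fiber libraries, H3.3 chaperones had 30% members, spectrin skeleton 25%, cell cycle exit 20% and proliferation 50%. Of all such starts 35.9% were members.

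Other lists held fewer members than the 13.8% of all starts, though the ribosomal protein and respiratory chain lists came close to it. Glycolysis had 0 of 20 starts, and 11 of the 20 had islands in all 4 libraries. Heat shock and chaperone genes had 1 of 22 (4.55%), Hsp90b1, the endoplasmic reticulum form of Hsp90, with 518 and 514 reads in a region of 24400 bp that enclosed the gene. Ribosomal protein genes had 8 of 78 (10.3%), 44 being called in all 4 libraries. Among the 8, Rps7 had 329 and 316 reads, Rpl9 268 and 244, Rps20 110 and 177 and Rpl29 65 and 56. Respiratory chain genes had 9 of 81 (11.1%), among them Atp5f1 with 118 and 127 reads, Ndufb5 with 95 and 71, Atp5s with 71 and 103 and Ndufs5 with 65 and 62. Of these 81 starts, 25 lay in no merged region. Among starts with islands of both fiber libraries, 0% of glycolysis, 5.88% of heat shock, 11.4% of ribosomal and 20% of respiratory chain starts were members. Of all such starts 35.9% were members.

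Markers of cells that microdissection could carry along were absent from the members. None of 8 endothelial, 7 blood, 8 macrophage and 10 retina and pigment epithelium marker genes had its start in a fiber-only region, against 13.8% of all starts. Only 2 endothelial, 0 blood, 1 macrophage and 1 retina and pigment epithelium start lay in regions with islands of both fiber libraries. Of all such starts 35.9% were members, so these lists are too small to show a lack of members. In any class, merged regions lay over the starts of 2 endothelial genes (Cdh5 and Cldn5), 1 macrophage gene (Cd68) and 0 blood genes. Keratins, which mark surface epithelia, had 1 of 49 starts (2.04%). It was Krt40, with 194 and 228 reads in a region that enclosed the gene. Olfactory receptors had 1 of 1087 starts (0.092%), Olfr71, with 104 and 96 reads. Most starts of both lists, 42 of the keratins and 1085 of the olfactory receptors, lay in no merged region. Only 3 keratin starts and 1 olfactory receptor start lay in regions with islands of both fiber libraries.

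**Figure D3:**
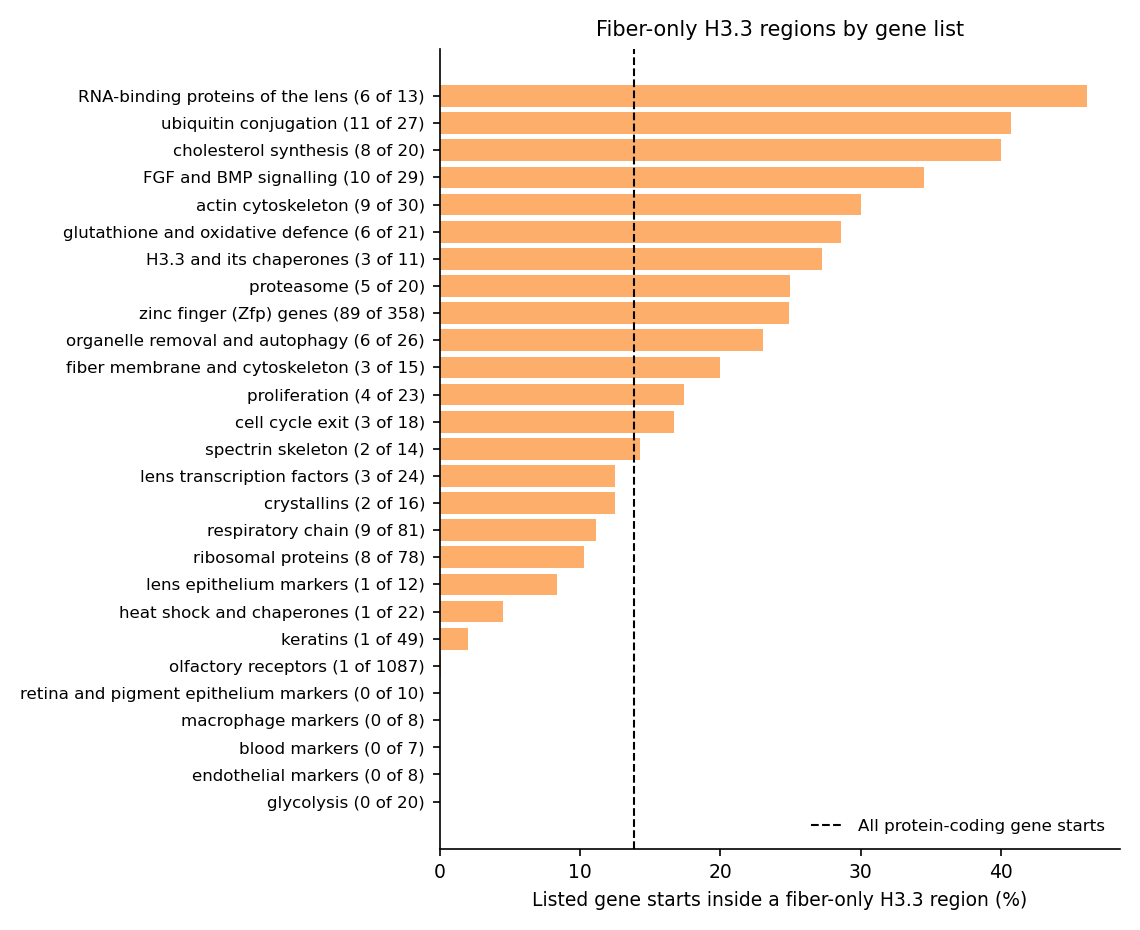
Percent of each list's gene starts that lay inside a fiber-only H3.3 region (x axis), with the number of members and of listed starts after each name. The dashed line marks the 13.8% of all protein-coding gene starts, which RNA-binding proteins of the lens (46.2%) exceed most and which glycolysis and the markers of other cells, at 0, do not reach.

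Around the starts, fiber islands formed a narrow band. At the start base itself 93.2% and 92% of the 2877 starts lay inside an island of fiber replicates 1 and 2. At 2 kb downstream this was 61.8% and 52.6%, at 2 kb upstream 41.5% and 38.1%, and at 10 kb downstream 20.5% and 21.4%. At starts called in all 4 libraries, 55.3% and 53.7% of positions 10 kb downstream were still inside fiber islands. Member starts and starts called in all 4 libraries were sorted by these same islands, so their difference is not independent of the rule. The fiber-only regions reached a median of 2982 bp downstream and 2182 bp upstream, and 63.6% of starts had the longer reach downstream, close to the 63.5% of the starts called in all 4 libraries. The downstream reach was 1886 bp without fiber replicate 1 and 6092 bp with the same number of islands from each list by reads. Away from the start, epithelium islands covered 3.09% and 2.61% of positions 10 kb downstream of member starts, against 6.26% and 6.45% for all starts. The rule allowed no epithelium island in a member region, and all starts include those with such islands. This difference is thus not independent of the rule either.

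**Figure D4:**
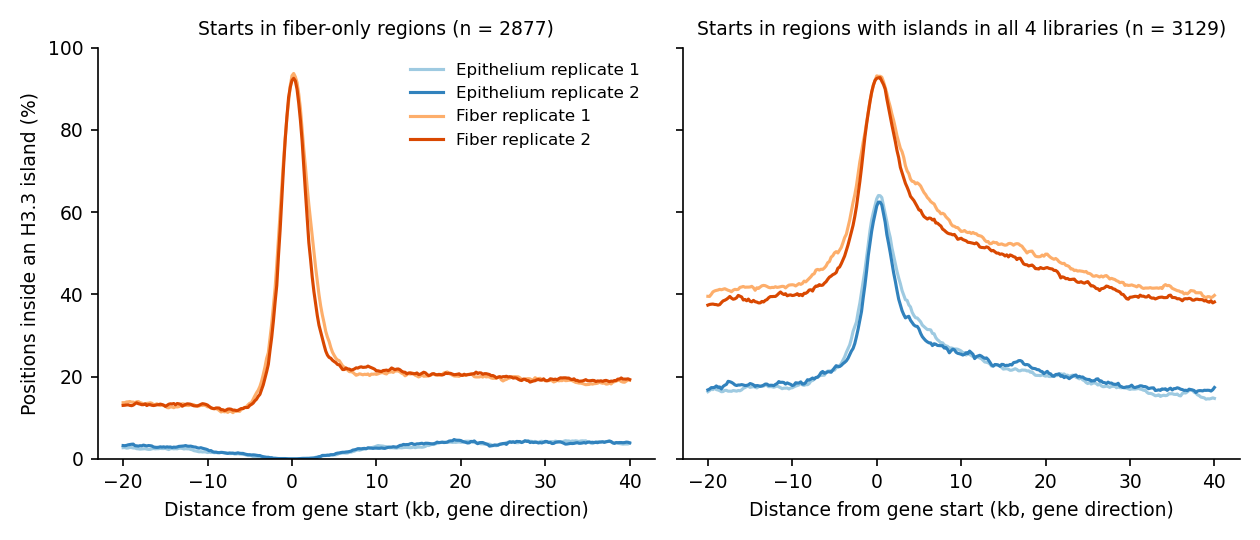
Percent of positions inside an H3.3 island (y axis) by distance from the gene start in gene direction (x axis, kb) for each of the 4 libraries, at the 2877 starts in fiber-only regions (left) and the 3129 starts called in all 4 libraries (right). Fiber coverage at member starts falls from over 92% to about 20% within 10 kb, and epithelium coverage is 0 at the start by the rule.

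Members tended to be longer genes, of which the region mostly covered a small part. The median length of the 2877 genes was 29895 bp, against 10672 bp for genes called in all 4 libraries and 17629 bp for all genes. Genes called in both fiber libraries and 1 epithelium library lay between members and those called in all 4, with 20269 bp. The region covered a median of 10.1% of the member gene, against 20.5% with 1 epithelium library. It enclosed the whole gene in 223 member cases (7.75%). With 1 epithelium library 16.8% of genes were enclosed, and 50% of those called in all 4 libraries. These contrasts are not independent of the rule. Of genes over 100 kb, 18.6% were members, and of those up to 5 kb, 6.09%. An epithelium island lay elsewhere in the gene in 767 cases (26.7%), and in 318 cases both epithelium libraries had one. This share rose with gene length, from 1.30% of members up to 5 kb to 48.2% of those over 100 kb. The nearest epithelium island lay a median of 48200 bp from the region, and within 5 kb of it in 11.5% of regions.

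Promoter sequence was not used by the rule, and its CpG content was higher at member starts than over all starts. CpG observed over expected is the number of CpG set against the number that the C and G content gives, and it was taken from 250 bases before to 50 bases after the start. Its median was 0.78 at the member starts, with quartiles of 0.59 and 0.92. It was 0.73 at starts called in all 4 libraries, 0.54 over all starts and 0.26 at the 10305 starts in no merged region. A ratio above 0.6 was found at 74.3% of member starts, 64.7% of starts called in all 4 libraries and 45.5% of all starts. Starts called in both fiber libraries and 1 epithelium library had a median of 0.76, with 72.1% above 0.6. Those called in 1 fiber library only had 0.74 and 67.7%. A high CpG content was thus not particular to the member starts. Of the starts with a ratio under 0.2, 2.78% were members, and of those with 1 or more, 26%. The lens genes printed above were among the CpG-poor members, with 0.37 for Cryga, 0.12 for Crygf, 0.33 for Lim2 and 0.24 for Bfsp1, while Rbm24 had 0.70 and Sox4 0.73.

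The share of CpG-rich starts was lower in wide regions. A ratio above 0.6 was found at 60.7% of the 61 starts in regions over 20 kb, 72.6% of the 343 in regions over 10 and up to 20 kb and 74.8% of the 2473 in regions up to 10 kb. Short motifs were counted in the same 300 bases on both strands. No motif contains another. GGGCGG, the GC box, was in 63.9% of member windows and 43.7% of all windows. CCGGAAG, an ETS-type motif, was in 18.9% against 11.0%, GCATGCGC, the core of the NRF1 motif, in 6.40% against 3.45%, and TGACGTCA, the cyclic AMP response element, in 4.41% against 2.43%. TATAAA was rarer, in 6.53% against 12.7%, and so was TGCTGA, a half-site of the Maf recognition element, in 13.8% against 17.4%. CCAAT was in 37.9% against 38.6%, and GAANNTTC, a pair of heat shock element units, in 5.84% against 7.58%. At starts called in all 4 libraries GGGCGG was in 62.2%, CCGGAAG in 16.0%, TATAAA in 7.13% and TGCTGA in 14.7%. With both fiber libraries and 1 epithelium library these were 63.7%, 16.9%, 6.04% and 15.2%. A match is only a run of letters and does not show a bound site.

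**Figure D5:**
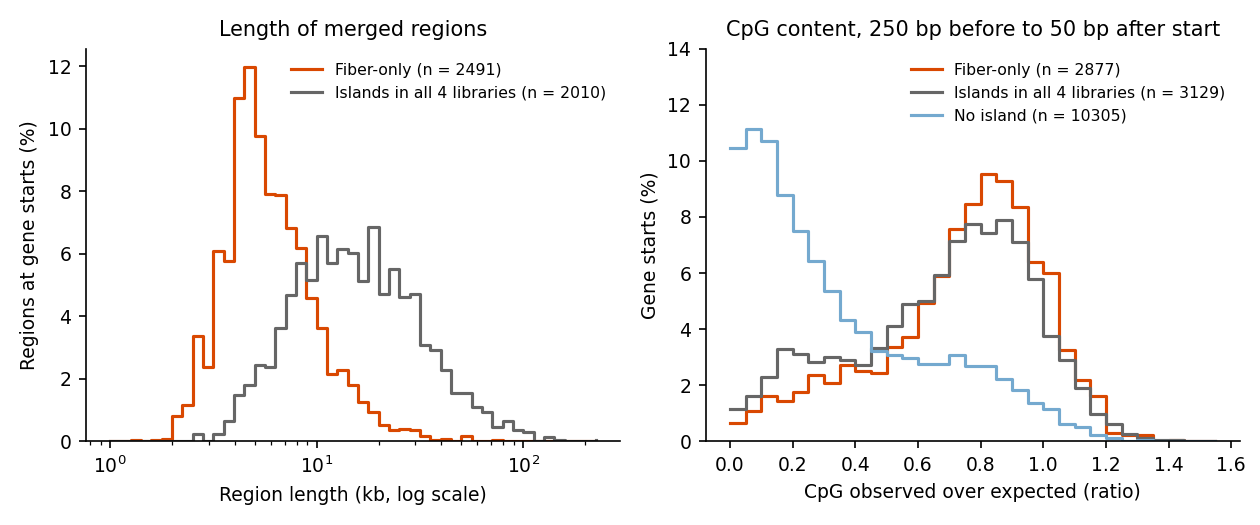
Left, length of merged regions at gene starts (x axis, kb, log scale) in percent of regions, fiber-only against called in all 4 libraries, with medians of 5600 and 15000 bp. Right, CpG observed over expected around starts (x axis, ratio) in percent of starts, where fiber-only starts centre near 0.78 and starts in no region near 0.26.

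The densest regions were short. Taking the lower density of the 2 fiber libraries, Sox4 ranked first with 46.8 and 42.5 reads per kb in a region of 3000 bp with 103 and 119 reads. Sox4 encodes a transcription factor of progenitor cells. The other 9 were Wdr11, Rrs1, Cyp46a1, Smarca2, Zbtb40, Ube3a, Lgr5 and the shared regions of Dnajb11 with Tbccd1 and of Ankib1 with Krit1, with lengths from 1400 bp (Wdr11) to 5400 bp (Smarca2). Smarca2, an ATPase of the SWI/SNF remodelling complex, held 190 and 192 reads, the most of the 10. By contrast Bfsp1, at 37.8 and 35.3 reads per kb, combined a high density with a length of 55200 bp.

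Whether a gene counted as a member turned on a few bases for a small number of starts. Within 200 bp of the edge of their region lay 59 member starts, the nearest being Ccdc80 at 1 bp, Pcp4 at 5 bp and Tma7 at 13 bp. Up to 200 bp outside a fiber-only region that held no gene start lay 35 starts. The nearest were Cul5 at 14 bp, Impa2 at 15 bp and Tmem217 at 16 bp. With every fiber-only region widened by 200 bp at each end, 2916 starts were covered, against 2877. The regions of the named starts were longer than the median member region, from 6200 to 11000 bp. They held 136 to 239 reads in fiber replicate 1 and 63 to 252 in fiber replicate 2.

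The number of members depended on how many islands each list contributed. When the same number of islands, 10389, was taken from each library, 514 fiber-only regions at gene starts were left by reads and 576 by density. Without fiber replicate 1 the number was 3804. Of the 2877 member genes, 481 were kept by reads, 608 by density and 100 by both. Bfsp1, Lim2, Cdh2, Pla2g16, Rbm24, Pakap, Mboat1, Mthfd1l, Cul3, Smarca2, Rpl9 and Krt40 were kept by both. Crygf, Becn1, Atg5, Atg9a, Ulk2, Meis1, Meis2, Zeb2, Stau1, Celf1, Pcbp2 and Elavl1 were kept by neither.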

How the data were processed

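H3.3 ChIP-seq islands of 4 libraries were analysed, 2 from lens epithelium and 2 from lens fibers. Per the study's methods and the submitters' processing notes, reads were single-end, 75 nt long and mapped by the authors to mm10 (GRCm38) with BWA (aln and samse). Islands were called per library by SICER2, whose settings stand in the names of the deposited lists: windows 200 bp wide, gaps up to 600 bp and an FDR of 0.01. The authors' lists hold a count of ChIP reads for every island, without normalization. Whether duplicates were removed, reads filtered or the pooled input used in calling is not given in the sources used here. The pooled input and the 12 bisulfite libraries were not analysed here. Reads outside islands are not in the lists, so no count model, interval or floor was computed, and 2 libraries per compartment limit the precision. Positions count from 1.

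Islands were merged, classed by the libraries that held them and joined to gene records of GENCODE vM21. The merging was tested on simulated data and checked with bedtools 2.31.1, which gave 38396 regions too. The caller joins windows across gaps, so neighbouring genes can share 1 region. Promoter sequence and repeated stretches of 75 bases came from the GRCm38 assembly of RefSeq. The number of gene starts in islands was compared by an exact two-sided permutation test over libraries. Members were selected on the calls of all 4 libraries, and members and gene lists were chosen with earlier results of these data known. Named genes were all members of the crystallin, fiber membrane, organelle removal, lens transcription factor and RNA-binding lists, up to 4 per other list by density, the 10 densest and 5 longest regions and the starts nearest a region's edge. Vit and Slc24a4, the contrast sequences and the groups of genes in the closing observations were named after their values were seen. Some genes that this rule names are not reported here. Alternatives left out each library, merged touching islands or those up to 1 kb apart, kept denser islands, islands of at least 600 bp or the same number per list, changed the overlap with the start, used all transcript starts or required no epithelium island within 5 kb. Calculations used Python 3.11.15, numpy 2.4.6, pandas 2.3.3, scipy 1.17.1 and numba 0.67.0.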

Additional observations from a re-analysis of the deposited data

How the results depend on the processing

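The number of fiber-only regions at gene starts was 2491 and that of gene starts 2877. Leaving out 1 library at a time gave 2819 to 3804 regions and 3224 to 4292 gene starts. The highest count came without fiber replicate 1, where 1 fiber library defined the class. Keeping islands at or above their own library's median density gave 1466 regions and 1729 gene starts, of which 1136 genes were members. The same number of islands per library gave 514 regions and 609 gene starts by reads and 576 regions and 682 gene starts by density. The other alternatives gave 2138 to 3331 regions. Under the median-density and same-number settings fewer islands entered, in particular from the fiber lists, and no other cause was tested.

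The fiber mean of gene starts in islands was 2.67 to 3.13 times that of the epithelium when 1 library was left out, 1.56 with the same number of islands and 2.43 with all transcript starts. With the replicate number as a block the fold was the same 2.88 with p = 0.5 by the exact permutation test, the smallest that 2 pairs allow. Nothing in the labels ties same-numbered libraries to shared animals. The median region length was 3600 bp without fiber replicate 1 and 10200 bp with the same number of islands by reads. The median CpG observed over expected stayed between 0.77 and 0.79 under all 15 alternatives, and the number of fiber-only crystallin genes between 0 and 7.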

Other observations

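Zinc finger genes of the Zfp series, most of which encode repressors of transposons and genes, were members at 89 of 358 starts (24.9%), against 13.8% of all starts. Among the 150 Zfp starts with islands in both fiber libraries, 59.3% had no epithelium island there, against 35.9% of all such starts. The densest were Zfp959 with 124 and 118 reads in fiber replicates 1 and 2, Zfp397 with 109 and 120, Zfp707 with 82 and 103 and Zfp658 with 164 and 120. These genes are rich in near-copies. In the Zfp959 region 18.4% of the 75-base stretches occurred elsewhere on the assembled chromosomes. In the regions of Zfp707, Zfp397 and Zfp658 the share was 2.71%, 0% and 0%. Over 50% were repeated in 10 member regions, among them those of Zfp955a (85.6%), Zfp971 (55.1%) and Zfp931 (54.8%), so reads there could not be placed with certainty. The region of Gm14391 was repeated throughout. In all, 50 of 2491 regions (2.01%) had more than 10% repeated.

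Members lay next to each other in places. The longest run of neighbouring gene starts that were all members was 7, on chromosome 6, with Scrn1, Plekha8, Fkbp14, Mturn, Znrf2, Nod1 and Ggct in 6 regions. Runs of 6 lay on chromosomes 2, 9 and 16. Most regions held 1 start (2130 of 2491), and 173 (6.95%) held a divergent pair with starts up to 1000 bp apart, against 8.36% of regions called in all 4 libraries. By chromosome, the share of starts that were members ranged from 10% on chromosome 7 to 22.4% on chromosome 12.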
